A study of Mus musculus with 25 samples.

Results

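Liver transcriptomes of mice labelled as liver-specific SIRT1 knockouts (LKO) were compared with those of wild-type (WT) mice, both on Western diet and both given an empty vector (EV). The comparison used 5 LKO EV and 6 WT EV libraries, 11 of the 25 libraries of the series, each from the liver of 1 mouse. It asked what the LKO genotype itself changed on this diet, with no NAMPT delivered. All genes over 1 CPM (counts scaled to a common library size) in at least 2 of the 25 libraries were examined, which were 14065 of 41388 gene identifiers.

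The mice were male, on a C57B/6J background, and about 8 weeks old at the start. They ate Western diet for 12 weeks and were 20 weeks old when liver was taken. WT mice were littermates that carried Sirt1 fl/fl, that is, Sirt1 flanked by loxP sites in both copies, without Cre. LKO mice carried the same floxed alleles and Cre driven by the Albumin promoter, which is active in hepatocytes, so loss of SIRT1 and presence of Cre cannot be told apart by these groups. Every mouse had received an AAV8 virus with the hepatocyte-selective TBG promoter, and here that virus held no NAMPT. One line of label text gives the vector insert as SIRT1, whereas the titles give NAMPT, and the titles were followed. The other libraries were 6 WT NAMPT, 5 LKO NAMPT and 3 chow-fed WT EV.

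SIRT1 is a protein deacetylase that uses NAD+ as co-substrate. It removes acetyl groups from histones and from regulators such as PGC-1alpha, FOXO1, p53, the p65 subunit of NF-kB and the clock proteins BMAL1 and PER2. In liver it is known for roles in fasting metabolism, fatty acid oxidation, lipid synthesis, inflammation and the daily clock.

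Each of the 11 libraries held 20216945 to 32937326 gene counts. Hepatocyte markers dominated both groups, with a summed level of 50600 to 67000 CPM in WT EV and 49210 to 72040 CPM in LKO EV over the 6 genes. Correlations of log2 CPM were 0.973 to 0.989 between groups and 0.969 to 0.989 within WT EV. The first principal component held 31.5% of the variance, and the groups overlapped on it.

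Sirt1 itself, on chromosome 10 from 63319005 to 63381704 (GRCm38), was examined first. The LKO EV libraries held 7.16, 7.22, 8.81, 10.1 and 9.61 CPM, after scaling by the TMM method. The WT EV libraries ran from 7.99 to 9.53 CPM with a median of 9.04. The groups overlapped, and the highest value of the 11 belonged to a library labelled LKO. Given here always as LKO over WT, the log2 fold change was -0.07 ± 0.10 (SE; 95% interval -0.28 to 0.14), and the adjusted p in limma was 0.99. Counts over the whole gene cannot show whether single exons were removed, and which exons were flanked is not given in the sources used here. The Sirt1 counts therefore gave no check of the genotype label, and LKO EV below means the libraries labelled so. The 3 tested genes on each side of Sirt1 (Gm26789, Herc4, Pbld2, Dnajc12, 1110002J07Rik and Reep3) had log2 fold changes between -0.20 and 0.35, and none was called.

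**Figure D1:**
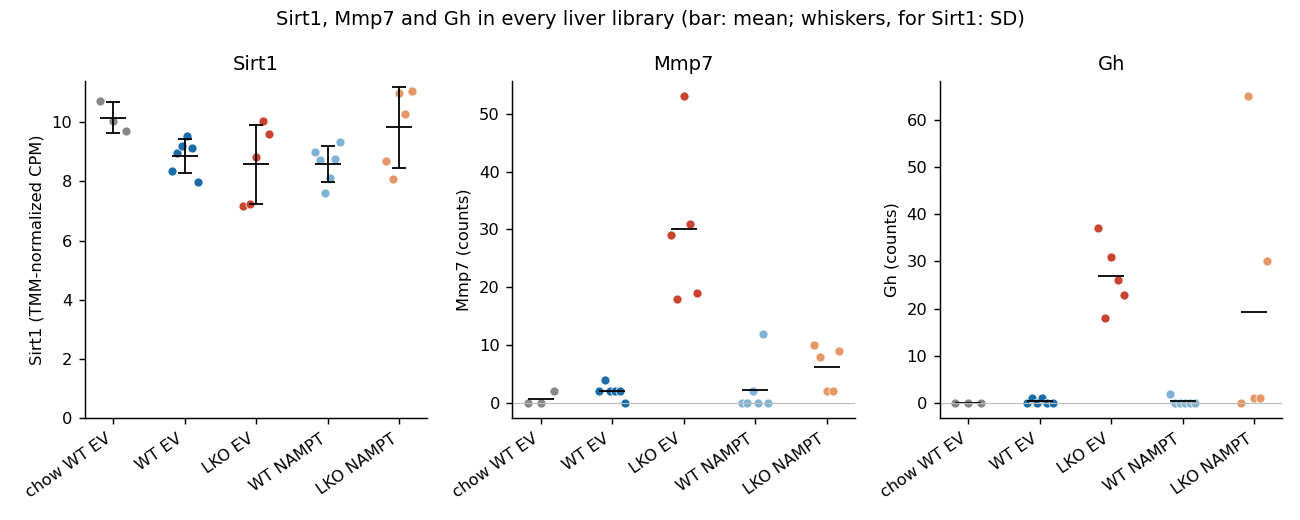
Sirt1 in TMM-normalized CPM, and Mmp7 and Gh in raw counts, on the vertical axes, with 1 point per library in the 5 groups and a bar at the group mean (whiskers for Sirt1: SD). Sirt1 overlaps between groups, Mmp7 reads 18 to 53 counts in LKO EV and 0 to 4 in WT EV, and Gh is high in all 5 LKO EV libraries but in only 2 of the 5 LKO NAMPT libraries.

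At an adjusted p-value of 0.05 or less, 1 gene of 14065 was called (0.00711%). It was Mmp7, which encodes matrilysin, a secreted matrix metalloproteinase made mainly by epithelia. Mmp7 entered the test through LKO EV alone, since 3 LKO EV libraries and no other library were over 1 CPM, and 6 genes in all passed the filter that way. Without the filter on low counts it was not called, with a log2 fold change of 3.53 and an adjusted p of 0.0767 in limma. The gene lies on chromosome 9 from 7692090 to 7699585. Its promoter region is shown because Mmp7 was the gene called with the filter. The sequence is GRCm38.p6, plus strand, chr9:7691840-7692139, from RefSeq, 250 bases before and 50 bases after the transcription start. Capitals mark matches to TGANTCA, the AP-1 motif, to CTTTGAT, a TCF motif, and to TATAAA, each searched on both strands.
Mmp7 promoter: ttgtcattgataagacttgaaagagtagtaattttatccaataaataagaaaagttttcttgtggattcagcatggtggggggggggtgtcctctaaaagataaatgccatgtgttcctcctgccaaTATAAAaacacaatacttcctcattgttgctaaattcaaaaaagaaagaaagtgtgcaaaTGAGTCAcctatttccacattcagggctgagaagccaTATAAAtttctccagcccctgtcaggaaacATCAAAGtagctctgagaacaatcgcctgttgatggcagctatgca
The AP-1 match began 63 bases before the start, and 7.81% of the 32851 promoters in the same table held that motif. The TATAAA matches began 123 and 26 bases before the start, and 13.6% of promoters held it. The TCF match, ATCAAAG on this strand, lay 4 bases after the start, and 3.73% of promoters held it. These matches describe letters, and no binding was measured.

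Mmp7 gave 29, 18, 53, 31 and 19 counts in the LKO EV libraries. The 6 WT EV libraries gave 2, 4, 2, 2, 2 and 0 counts. Every LKO EV library thus stood above every WT EV library, at a level of 1.12 ± 0.31 CPM (SD, n = 5) against 0.085 ± 0.049 CPM (SD, n = 6). On the log2 scale the difference was 3.46 ± 0.51 (SE), and limma gave it an adjusted p of 0.0067. From the summed counts, 150 against 12, the ratio per sequenced read was 13.7 (exact 95% interval 7.59 to 27.03, counting error only). A stretch of 123 bases is shared with AV064505 on the other strand. With the replicate number added as a block, Mmp7 stood at 2.55 with an adjusted p of 0.466 in limma. A filter on mean CPM above 1 left it out of the test. Mmp7 was not called without WT EV replicate 2, where its adjusted p was 0.0536, and was called without each of the other 10 libraries. It was also not called by the edgeR quasi-likelihood test, which called 0 genes with 498 at an unadjusted p under 0.05, while DESeq2 called 11 genes and the edgeR exact test 10, Mmp7 among both.

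Growth hormone, Gh, showed the largest positive log2 fold change of all genes tested, and was chosen after its values were seen. It is normally a pituitary product and lies on chromosome 11 from 106300271 to 106301865. The LKO EV libraries gave 37, 18, 31, 26 and 23 counts. The WT EV libraries gave 0, 1, 0, 1, 0 and 0 counts. All 5 LKO EV libraries therefore held Gh reads at about 1 CPM, against 2 counts over the 6 WT EV libraries. The ratio per read was 73.8 (exact 95% interval 20.0 to 615, counting error only). In limma the log2 fold change was 4.88 ± 1.09 (SE) with an adjusted p of 0.177, and Gh was called in 5 of the 11 other ways of processing that tested it. Gh passed the filter through 1 LKO EV and 1 LKO NAMPT library, and no WT library was over 1 CPM. Prl, the pituitary hormone prolactin, had 0 counts in every library, which allows up to 3 counts in each. The LKO NAMPT libraries gave 0, 65, 1, 1 and 30 Gh counts, the WT NAMPT libraries 2, 0, 0, 0, 0 and 0, and the chow libraries 0 each. LKO NAMPT libraries 1, 3 and 4 thus matched the WT level of Gh, unlike every LKO EV library. The Cre transgene has no row in the count files, and the origin of the Gh reads was not tested.

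Without adjustment, 494 genes (3.51%) were higher and 397 (2.82%) lower in LKO EV at p under 0.05, out of 14065. The median log2 fold change over all genes was 0.0014 and the median SE 0.137. For 12278 genes (87.3%) the 95% interval lay inside a 2-fold difference either way, and for 9676 (68.8%) inside 1.5-fold. A point estimate beyond 2-fold was found for 189 genes, 108 higher and 81 lower, and 109 of them had an average log2 CPM under 0. Libraries did not overlap between the groups for 37 genes that were higher (0.263%) and 46 that were lower (0.327%).

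**Figure D2:**
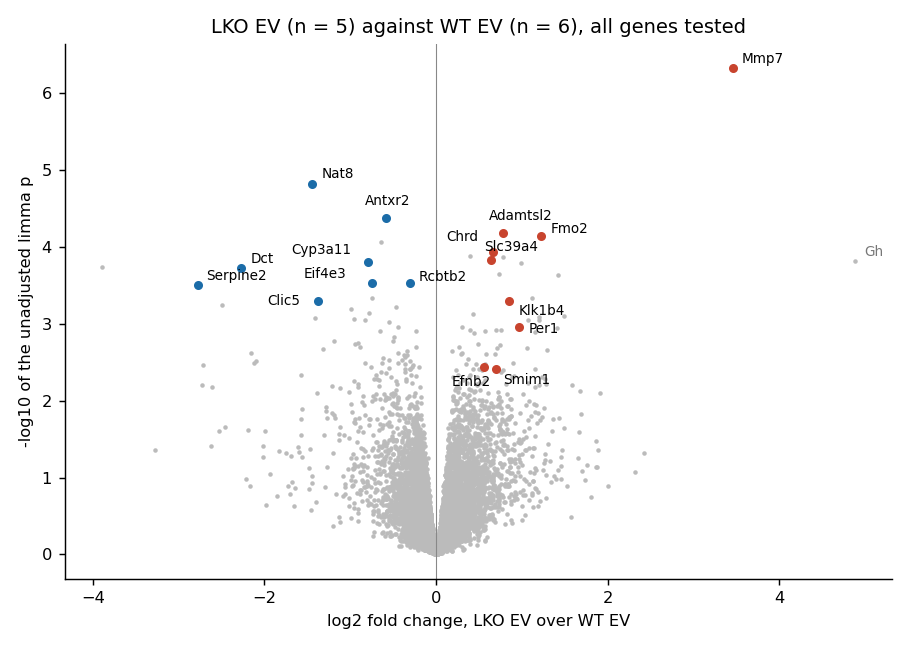
Each point is 1 of 14065 genes, with the log2 fold change of LKO EV over WT EV on the horizontal axis and -log10 of the unadjusted limma p on the vertical axis. Red and blue points are the named genes without overlap, and Mmp7 at 3.46 stands apart from the rest.

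Protein-coding genes were then limited to those whose log2 CPM averaged 0 or more, and the 8 higher and 8 lower genes with the smallest p were taken from the ones without overlap. This contrast chose them, so their values are a description, and none was called when limma was fitted to all 25 libraries. With only the groups compared, limma called Slc39a4, Adamtsl2 and Nat8. With 2 surrogate variables it called Nat8, Serpine2, Antxr2, Chrd, Rcbtb2 and Dct. DESeq2 and the edgeR exact test each called Serpine2, Nat8, Fmo2, Dct, Clic5 and Antxr2. Adjusted p-values ran from 0.177 to 0.534 for the higher and from 0.107 to 0.298 for the lower genes.

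Adamtsl2, a secreted glycoprotein of the extracellular matrix, held 5.71, 7.62, 6.76, 5.95 and 6.8 CPM in LKO EV. In WT EV it ran from 3.44 to 4.39 CPM, median 3.81, so the log2 fold change was 0.78 ± 0.16 (SE). Chrd, the BMP antagonist chordin, held 4.31, 4.01, 4.24, 4.29 and 4.805 CPM in LKO EV and 2.19 to 3.14 CPM (median 2.88) in WT EV. Every LKO EV library was above every WT EV library for both genes, by about 1 CPM. Efnb2, a ligand of Eph receptors, was at 5.13 to 6.24 CPM in LKO EV and 2.63 to 4.77 CPM in WT EV, with a log2 fold change of 0.56 ± 0.18 (SE).

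Fmo2, a flavin-containing monooxygenase, spread widely within LKO EV, with 7.97, 13.6, 16.6, 25.1 and 17.2 CPM in LKO EV. WT EV stayed at 4.34 to 7.47 CPM, median 6.68, and the log2 fold change was 1.23 ± 0.26 (SE, adjusted p 0.177 in limma). LKO EV replicate 1 lay close to WT EV, and without it Fmo2 was called, with an adjusted p of 0.0177. Slc39a4, the zinc importer ZIP4, held 77.5, 84.5, 76.3, 72.3 and 77.1 CPM in LKO EV against 41.8 to 60.0 CPM (median 50.9) in WT EV. Per length it stood highest of the 8 in LKO EV, at 34.9 RPKM. Klk1b4, a member of the kallikrein family, was at 6.26 to 8.12 CPM in LKO EV and 2.22 to 6.08 CPM in WT EV. It has many close paralogues, so its assignment of reads is uncertain.

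Per1, a repressor of the daily clock, held 24.3, 34.7, 38.3, 37.6 and 43.5 CPM in LKO EV and 9.41 to 24.2 CPM (median 19.5) in WT EV. Its log2 fold change was 0.97 ± 0.26 (SE, adjusted p 0.374 in limma). The lowest LKO EV library and the highest WT EV library nearly met. Smim1, a small membrane protein of red blood cells, was at 2.56 to 3.904 CPM in LKO EV and 1.39 to 2.40 CPM in WT EV. It shares 1044 bases with Lrrc47. Values of the globin genes are given with the cell type markers, and the part of red blood cells in Smim1 was not tested.

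The lower genes were led by Nat8, an N-acetyltransferase that acts on cysteine conjugates. It held 4.43, 9.53, 5.43, 5.57 and 7.86 CPM in LKO EV and 10.4 to 21.4 CPM (median 18.01) in WT EV. The log2 fold change was -1.44 ± 0.27 (SE, adjusted p 0.107 in limma), and 4 of the 12 other ways of processing called it. Nat8 belongs to a family of similar genes. Cyp3a11, a major drug-metabolizing cytochrome P450 of mouse liver, held 923 to 1249 CPM in LKO EV and 1434 to 3053 CPM in WT EV. Its log2 fold change was -0.79 ± 0.18 (SE, adjusted p 0.177 in limma), and Cyp3a genes are close paralogues.

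Serpine2, the protease inhibitor nexin-1, had the most negative value of the 16, with 1.25, 1.65, 1.54, 3.09 and 1.51 CPM in LKO EV. WT EV spread widely, with 3.46, 16.7, 3.81, 14.6, 20.3 and 29.4 CPM. The log2 fold change was -2.78 ± 0.66 (SE, adjusted p 0.224 in limma), and WT EV replicates 1 and 4 lay near LKO EV. Dct, dopachrome tautomerase of melanin synthesis, had the next most negative value. It held 0.564 to 1.05 CPM in LKO EV and 1.10, 5.67, 4.15, 6.23, 3.88 and 3.05 CPM in WT EV, a log2 fold change of -2.27 ± 0.52 (SE). WT EV replicate 1 all but touched the LKO EV range, and without it both Serpine2 and Dct were called, with adjusted p-values of 0.0467 and 0.0114.

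Of the remaining lower genes, Antxr2, a receptor that binds extracellular matrix, was at 12.8 to 20.9 CPM in LKO EV and 21.7 to 31.7 CPM in WT EV. Clic5, a chloride intracellular channel protein, was at 0.619 to 1.36 CPM in LKO EV and 1.90 to 5.13 CPM in WT EV. Eif4e3, a cap-binding protein, was at 3.22 to 4.86 CPM in LKO EV and 5.41 to 8.20 CPM in WT EV, with 373 bases shared with Gm20696. Rcbtb2 had the smallest difference of the 16, with a log2 fold change of -0.30 ± 0.07 (SE). Serpina1e, an alpha-1-antitrypsin paralogue chosen after its values were seen, ran from 90.6 to 5703 CPM in WT EV and from 46.5 to 194 CPM in LKO EV. It overlapped between the groups, and DESeq2 and the edgeR exact test called it while limma did not (adjusted p 0.322).

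**Figure D3:**
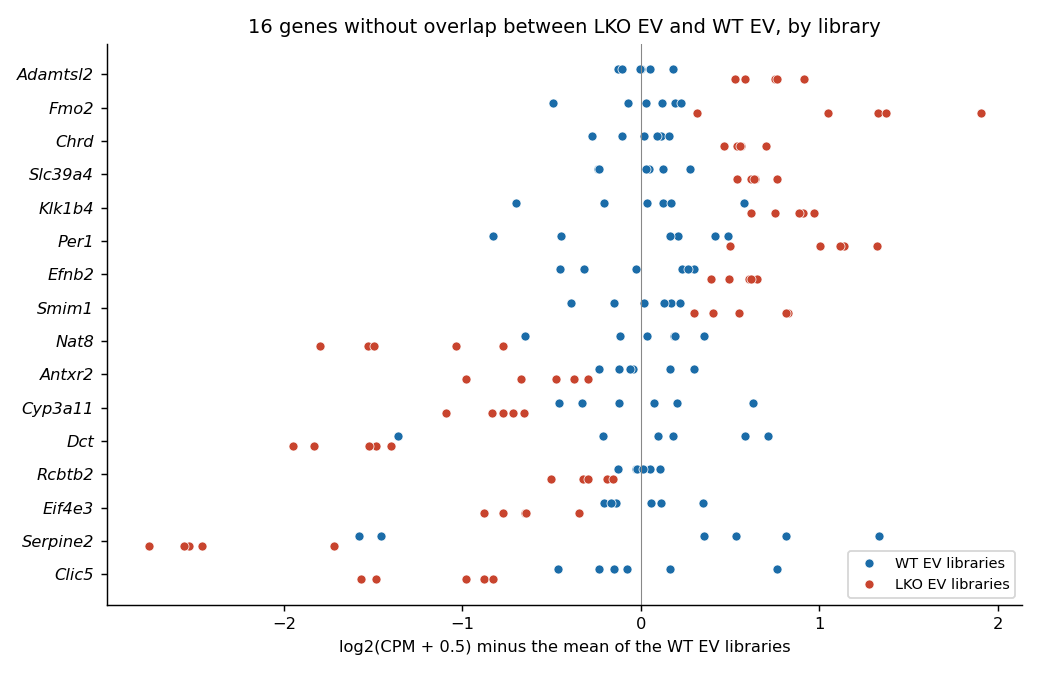
Expression of 16 genes in each WT EV and LKO EV library, as log2(CPM + 0.5) minus the mean of the WT EV libraries (horizontal axis, 1 gene per line). The genes were chosen for having no overlap, and Serpine2 and Dct show WT EV libraries close to the LKO EV range.

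The difference could be set beside that between the libraries labelled LKO NAMPT and WT NAMPT, which shares no library with it. Replicates 1, 3 and 4 labelled LKO NAMPT held 0, 1 and 1 Gh counts, whereas every LKO EV library held 18 to 37, and what this means for their genotype label was not tested. The values below therefore follow the labels, and some are also given without these 3 libraries, which left 2 LKO NAMPT libraries. The NAMPT pair gave 1120 calls among 14065 genes (7.96%), with 588 higher and 532 lower in LKO NAMPT. Without the 3 libraries it gave 1664 calls, of which 956 were shared. That split depended on scaling, with 345 higher and 713 lower under upper-quartile factors. It also depended on single libraries. Dropping LKO NAMPT replicate 2 left 0 calls in limma (2287 genes at an unadjusted p under 0.05), dropping LKO NAMPT replicate 5 left 2, and dropping WT NAMPT replicate 6 raised them to 2287. The sign was shared by both vectors for 44.5% of all genes, and for 44.3% without the 3 libraries. For the 891 genes with an unadjusted p under 0.05 under EV, it was shared by 426 (47.8%). Of those 891 genes, 73 were called under NAMPT, which is 8.19% of the 891 and 6.52% of the 1120, beside 7.96% of all genes.

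Of the 16 genes above, 10 kept their sign under NAMPT, and 11 without the 3 libraries of low Gh. Mmp7 was called there too, with a log2 fold change of 2.28 (95% interval 0.81 to 3.76) and an adjusted p of 0.0497 in limma (0.0297 without the 3 libraries). Its counts were 10, 8, 2, 2 and 9 in LKO NAMPT and 0, 0, 2, 0, 12 and 0 in WT NAMPT, so the groups overlapped. From the summed counts, 31 against 14, the ratio per read was 2.48 (exact 95% interval 1.28 to 5.05, counting error only), which is smaller than the fitted fold change. Clic5 was lower under both vectors, with log2 fold changes of -1.37 under EV and -0.96 under NAMPT (adjusted p 0.0406 in limma under NAMPT). Serpine2 was at -2.78 and -1.76, and Fmo2 at 1.23 and 0.60, neither called under either vector by limma fitted to all 25 libraries.

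Adamtsl2 went the opposite way under NAMPT. WT NAMPT held 4.81, 8.63, 6.58, 7.05, 5.37 and 3.77 CPM, and LKO NAMPT held 5.51, 2.40, 3.97, 2.58 and 2.99 CPM. This was a log2 fold change of -1.12 (adjusted p 0.0067 in limma), against 0.78 under EV, and it was -1.25 without the 3 libraries of low Gh. The test of the difference between vectors called Adamtsl2 alone, at -1.90 ± 0.245 (SE, adjusted p 6.6e-04 in limma), while 2986 genes had an unadjusted p under 0.05. Adamtsl2 was not called by the edgeR quasi-likelihood test (adjusted p 0.218), without quality weights in limma (0.133) or with 2 surrogate variables (0.0549), and DESeq2 gave it no adjusted p. Without the 3 libraries of low Gh, limma called 376 genes for the difference, among them Adamtsl2 at -2.03, Per1 and Chrd. In the fit of all libraries Per1, Chrd, Efnb2, Smim1 and Rcbtb2 also had opposite signs, with adjusted p-values from 0.0748 (Chrd) to 0.131 (Smim1) for the difference.

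**Figure D4:**
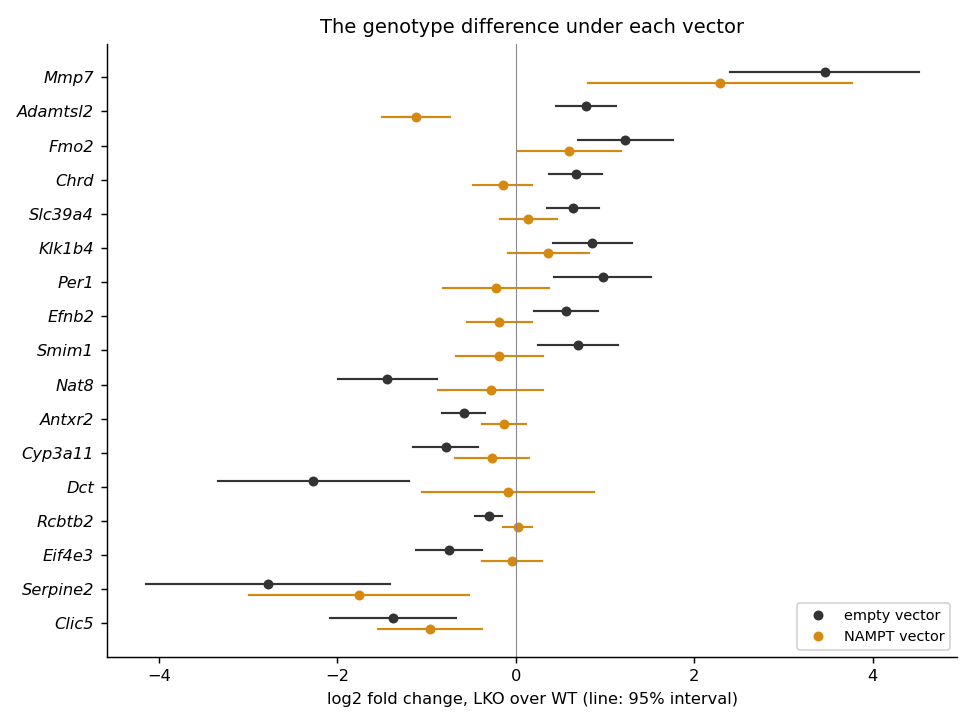
The log2 fold change of LKO over WT (horizontal axis) with its 95% interval under the empty vector (black) and the NAMPT vector (orange) for Mmp7 and the 16 genes. Mmp7, Serpine2 and Clic5 lie on the same side under both, and Adamtsl2 changes side from 0.78 to -1.12.

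Gene lists for the known roles of SIRT1 were then described, with the share of positive values among all genes, 50.5%, and the median of 0.0014 as background. No member of any list was called except Mmp7, which was not called without the filter. Among the 7 sirtuins, log2 fold changes ran from -0.08 (Sirt5) to 0.28 (Sirt6, 0.12 without LKO EV replicate 3). The 17 tested genes of NAD synthesis and salvage had a median of -0.06, and Nmnat3, which makes NAD in mitochondria, was the 1 member with an unadjusted p under 0.05, at -0.24. Nampt, rate-limiting in NAD salvage, held 46.0, 46.7, 56.5, 75.6 and 55.7 CPM in LKO EV and 38.3 to 54.1 CPM (median 49.2) in WT EV. The groups overlapped, and the log2 fold change was 0.18 (95% interval -0.13 to 0.49), or 0.089 without LKO EV replicate 4. Among 10 NAD consumers and clearance genes, Aox3, an aldehyde oxidase that clears nicotinamide products, was at -0.46 with an unadjusted limma p of 0.0072. The 15 regulators that SIRT1 deacetylates had a median of 0.04, which ran from -0.015 without LKO EV replicate 4 to 0.063 without WT EV replicate 8.

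Fgf21 and the genes of de novo lipogenesis overlapped between the groups. Fgf21, the fasting hepatokine, held 11.03, 7.87, 7.42, 6.42 and 3.50 CPM in LKO EV. WT EV ran from 0.370 to 14.5 CPM with a median of 3.92, a wider range that held all LKO EV values. Its log2 fold change was 0.96, with a 95% interval from -0.14 to 2.06 and an adjusted p of 0.854 in limma. It was 0.42 without WT EV replicate 8. Of the 14 genes of de novo lipogenesis, 11 had positive values and the median was 0.12, which turned to -0.049 without WT EV replicate 8 and was 0.23 without WT EV replicate 1. Fasn, fatty acid synthase, held 2564, 4129, 1675, 1351 and 2492 CPM in LKO EV and 1022 to 4166 CPM in WT EV. Its interval of -0.77 to 0.60 held neither a 2-fold rise nor a 2-fold fall. The intervals were -0.17 to 0.62 for Acaca, -0.38 to 0.71 for Elovl6, -0.32 to 0.60 for Scd1, -0.17 to 0.79 for Pklr and -0.82 to 0.13 for Gpam. Scd1, which desaturates stearate, held 48980 to 71470 CPM in LKO EV and 25440 to 75700 CPM in WT EV. WT EV replicate 8 held the lowest values of Fgf21, Fasn, Elovl6, Acaca, Pklr, Gpam and Scd1 among the WT EV libraries.

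Among 26 genes of fatty acid oxidation and ketogenesis, 9 had positive values and the median was -0.08. Angptl4, a lipoprotein lipase inhibitor, held 80.8 to 111 CPM in LKO EV and 27.7 to 80.5 CPM in WT EV, without overlap, at a log2 fold change of 0.59 (adjusted p 0.765 in limma). Positive values were held by 6 of 21 cholesterol synthesis genes, 11 of 20 lipoprotein genes and 6 of 17 bile acid genes, with medians of -0.07, 0.05 and -0.04. Without WT EV replicate 8 the cholesterol median was -0.19, and without WT EV replicate 6 it was -0.015. The lipoprotein median ran from -0.020 without LKO EV replicate 4 to 0.084 without LKO EV replicate 3. The bile acid median ran from -0.15 without WT EV replicate 1 to 0.041 without LKO EV replicate 1. The members with an unadjusted p under 0.05 there were Sqle (squalene epoxidase) at 0.77 and Apoc2, the lipoprotein lipase activator, at 0.35. In the list of gluconeogenesis and insulin signalling, Pck1, which commits carbon to gluconeogenesis, held 891, 1296, 1538, 1732 and 1211 CPM in LKO EV and 537 to 1360 CPM in WT EV. Pck1 was at 0.50 and Irs2, an insulin receptor substrate, at 0.46, neither called. For mitochondrial biogenesis the 16 genes had a median of -0.01.

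Stress and inflammation lists lay near the background too. Medians were -0.03 for 13 genes of the integrated stress and unfolded protein response, -0.03 for 17 NF-kB and cytokine genes and 0.003 for 19 acute-phase proteins. Single libraries turned the sign of each. The stress median ran from -0.082 without WT EV replicate 2 to 0.036 without LKO EV replicate 5. The NF-kB median ran from -0.12 without WT EV replicate 6 to 0.10 without LKO EV replicate 4. The acute-phase median ran from -0.046 without WT EV replicate 7 to 0.014 without LKO EV replicate 4. Itih3, an acute-phase protein, was at -0.32 with an unadjusted limma p of 0.019. In the growth hormone and IGF1 list, 7 of 10 genes were negative. Socs2, a target of growth hormone signalling, held 5.55, 5.82, 9.64, 19.5 and 16.2 CPM in LKO EV and 2.07 to 10.54 CPM in WT EV. The 15 drug-metabolism genes had a median of 0.005, with values from -0.95 (Cyp2b10) to 1.46 (Cyp2b13). That median ran from -0.12 without WT EV replicate 8 to 0.11 without LKO EV replicate 2.

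All 17 collagen and myofibroblast genes had positive log2 fold changes, from 0.03 (Lox) to 0.82 (Ccn2), with a median of 0.28, beside 50.5% positive among all genes. Without LKO EV replicate 3 that median was 0.15, and without WT EV replicate 4 it was 0.44. With the replicate number added as a block, the median turned to -0.18. These genes may vary together across livers, which was not measured, so they cannot be counted as independent. Their summed level overlapped widely, at 462, 309, 388, 210 and 273 CPM in LKO EV and 194 to 437 CPM (median 241) in WT EV. Ccn2, a matricellular target of TGF-beta, and Col6a3, a collagen VI chain, had unadjusted p-values under 0.05, and no member was called. Under the NAMPT vector all 17 were negative, with a median of -0.68. Of 14 tested metalloproteinases and inhibitors, 12 were positive with a median of 0.20. Mmp2, a gelatinase, held 2.61 to 3.62 CPM in LKO EV and 1.36 to 2.59 CPM in WT EV, without overlap, at a log2 fold change of 0.58 (adjusted p 0.644 in limma). Without WT EV replicate 2, the lowest for Mmp2, it was 0.31.

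**Figure D5:**
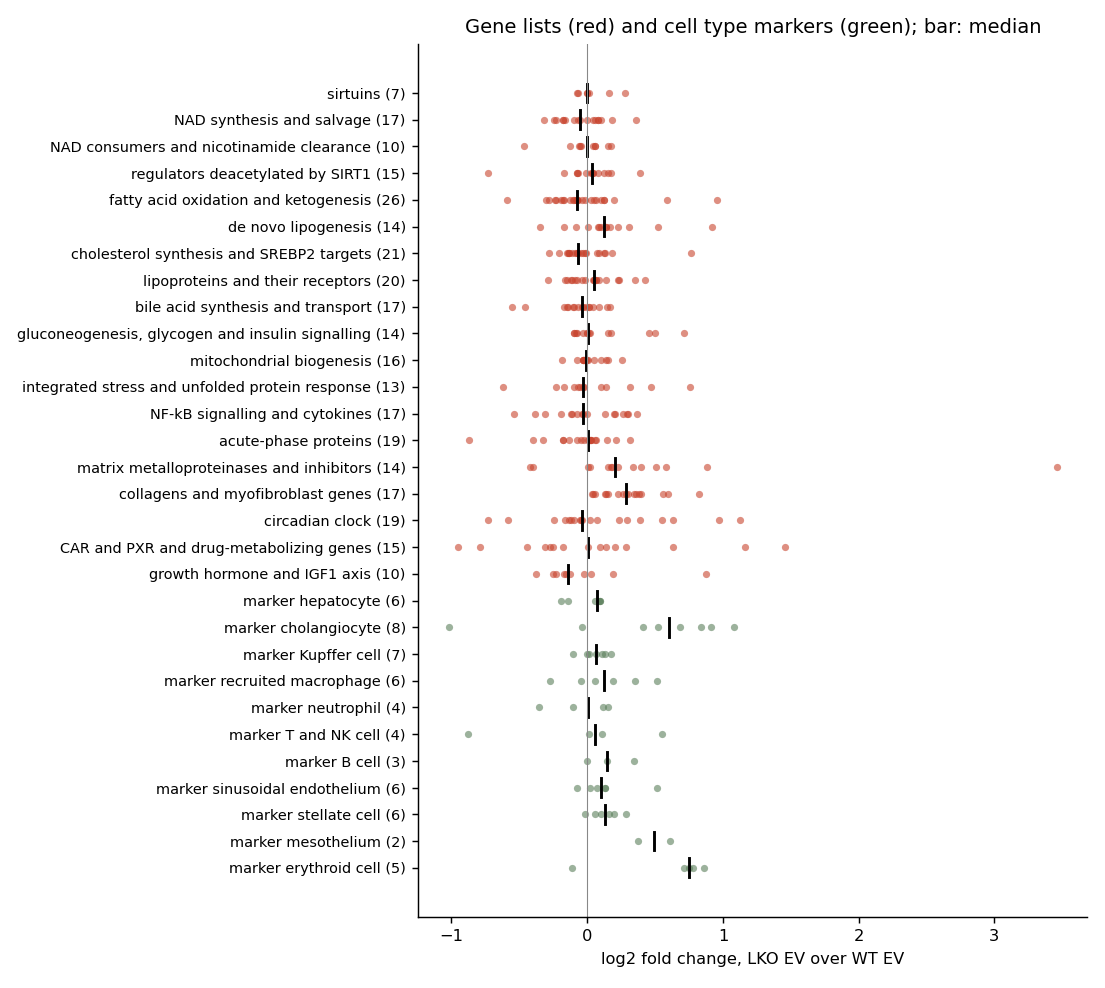
The log2 fold change of LKO EV over WT EV (horizontal axis) for each tested gene of 19 pathway lists (red) and of the cell type marker lists with at least 2 tested genes (green), with the number tested in brackets and a bar at the median. Collagen and myofibroblast genes all lie above 0, and Mmp7 at 3.46 is the one member called with the filter on low counts.

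The clock list of 19 genes had a median of -0.04, which ran from -0.10 without LKO EV replicate 4 to 0.0945 without LKO EV replicate 1. Per1 was the member without overlap, and Arntl, which encodes BMAL1, was at -0.73 with an unadjusted limma p of 0.042. Dbp, a clock output gene of wide daily swing, chosen after its values were seen, held 11.4, 15.5, 42.8, 53.9 and 62.1 CPM in LKO EV. It held 14.1, 11.3, 8.79, 36.4, 51.3 and 46.0 CPM in WT EV. Each group thus contained libraries of low and of high Dbp. The hour of tissue collection is not in the labels, and its part in Per1 was not tested.

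Marker lists of other cell types were read for the whole list, because liver tissue holds many cell types and fewer cells of a type cannot be told apart from less RNA per cell. Of the 8 tested cholangiocyte markers, 4 were higher and 1 lower at an unadjusted p under 0.05, beside 3.51% higher and 2.82% lower of all genes, with a median log2 fold change of 0.60. Epcam was at 0.91, Muc1 at 0.84, Prom1 at 1.08 and Spp1 at 0.69, none called. Muc1 was at 0.40 without WT EV replicate 2, and Spp1 at 0.41 without LKO EV replicate 3. The defining keratins Krt7 and Krt19 were at 0.52 and 0.41, with intervals that held 0, and both were near 1 CPM in both groups. Sox9, a transcription factor of bile duct cells, went the other way, with 5.51, 4.96, 5.28, 2.51 and 3.14 CPM in LKO EV against 6.14 to 12.2 CPM (median 8.76) in WT EV. It did not overlap between groups, and its log2 fold change was -1.02 (adjusted p 0.642 in limma). Sox9 was lower under NAMPT as well, at -1.44 (adjusted p 0.0282 in limma). There the groups overlapped, at 1.78 to 11.1 CPM in LKO NAMPT and 5.58 to 20.1 CPM in WT NAMPT. Under NAMPT the 8 cholangiocyte markers had a median of -0.42, with 2 positive. The summed marker level was 42.6 to 97.6 CPM in LKO EV and 46.1 to 104 CPM in WT EV, and the part of bile duct cells in the Mmp7 difference was not tested.

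Of 5 erythroid markers, the 4 globin genes were higher at an unadjusted p under 0.05, beside 3.51% of all genes, and Alas2 was not, with a median of 0.75. No member was called, and the median was 0.49 without LKO EV replicate 3. The summed levels overlapped, at 1059, 1314, 2088, 974 and 873 CPM in LKO EV and 493 to 1206 CPM (median 778) in WT EV. Hbb-bs, a beta-globin, was at 0.86 under EV and at 1.35 under NAMPT. Medians of the Kupffer cell, recruited macrophage, neutrophil, T and NK cell and B cell lists lay between 0.01 and 0.14, and single libraries set their size or sign. Recruited macrophages ran from -0.16 without LKO EV replicate 3 to 0.46 without WT EV replicate 1. Kupffer cells ran from -0.045 without LKO EV replicate 3 to 0.29 without WT EV replicate 2. Neutrophils ran from -0.25 without LKO EV replicate 3 to 0.16 without LKO EV replicate 4. T and NK cells ran from -0.16 without LKO EV replicate 2 to 0.26 without LKO EV replicate 5, and B cells from 0.054 without LKO EV replicate 3 to 0.24 without LKO EV replicate 2. Cd4 was the 1 immune marker with an unadjusted p under 0.05, at -0.88. Of 6 sinusoidal endothelium markers, 5 were positive and 2 were higher at an unadjusted p under 0.05, beside 3.51% of all genes. None was called, and the median was 0.10, or 0.055 without LKO EV replicate 2, with Lyve1 at 0.52. Stellate cells had 0.13, or 0.083 without WT EV replicate 7. Mesothelium had 0.49 over 2 tested genes, or 0.29 without WT EV replicate 1. The 1 tested exocrine pancreas gene, Cela1, was at -0.37 (-0.11 without LKO EV replicate 3) and the 1 tested adipocyte gene, Cidec, at 0.08 (from -0.43 without WT EV replicate 8 to 0.37 without WT EV replicate 1). Hepatocyte markers had a median of 0.07, or -0.015 without LKO EV replicate 2.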

How the data were processed

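Poly-A RNA of 25 livers, 1 library per mouse, was sequenced as single reads of 50 bases. The authors aligned reads with STAR to GRCm38 and counted unambiguous reads per gene with featureCounts; the labels' processing notes list STAR 2.5.1a and featureCounts 1.4.6-p5, and use of strand is not stated. Raw whole-number counts for each gene were deposited, beside CPM and RPKM values the authors computed from them, which were recomputed (largest relative deviation 5.9e-14) and not used further. No 2 libraries of the LKO EV group or of the WT EV group were copies, and the other groups were not checked for this.

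Groups follow the titles. Genes over 1 CPM in at least 2 libraries were kept and 4 ribosomal RNA genes left out. All 25 libraries were fitted, with 1 mean per group and no covariates, by voomWithQualityWeights in limma 3.58.1 with TMM factors of edgeR 4.0.16 in R 4.3.3. Genes with a Benjamini-Hochberg adjusted p of 0.05 or less were called. Values are TMM-normalized CPM, and plots used a pseudocount of 0.5. Replicates are separate mice. Intervals are 95%.

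Named genes were those called, the 8 higher and 8 lower protein-coding genes without overlap (average log2 CPM of at least 0, smallest p), Sirt1, Nampt, Fgf21 and 6 lipogenic genes, the 2 members of smallest p in each list, and 3 neighbours on each side of Sirt1. The members and lists were chosen with earlier results of these data known. Symbols came from the GENCODE annotation, which named 40340 of 41388 identifiers. Promoter matches are from RefSeq.

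The alternatives were edgeR quasi-likelihood and exact tests, DESeq2 1.42.0, no quality weights, upper-quartile or library-size scaling, other filters, no ribosomal protein genes, only the groups compared, a replicate block, 2 surrogate variables (sva 3.50.0) and leaving out each library. Leaving out LKO NAMPT replicates 1, 3 and 4 together was added after seeing the data. Procedures were tested on simulated data.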

Additional observations from a re-analysis of the deposited data

Results flagged for a closer look

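Within the groups of 5 and 6 libraries, 156 tests for a single outlying library (Dixon's criterion, which flags about 1 in 20 groups by chance) gave 6 marks, in 6 genes and 5 libraries. Serpine2 read 3.09 CPM in LKO EV replicate 4, where the next library held 1.65 CPM. Saa3, an acute-phase protein, read 23.4 CPM in WT EV replicate 8, with 9.47 CPM next. Mmp2 read 1.36 CPM in WT EV replicate 2, where the next lowest was 2.20 CPM. Gh read 1.49 CPM in LKO EV replicate 1, with 1.005 CPM next. Spp1 read 65.7 CPM in WT EV replicate 1, with 33.6 CPM next. Smoc2, a matricellular protein, read 5.4 CPM in WT EV replicate 1, with 2.87 CPM next, and Smoc2 was called without that library (adjusted p 0.0387 in limma).

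The difference of Adamtsl2 between libraries labelled LKO and WT differed between the vectors by -1.90 on the log2 scale, tested as the interaction in limma, and by -2.03 without the 3 LKO NAMPT libraries of low Gh.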

How the results depend on the processing

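The count of called genes, 1 in LKO EV against WT EV, became 0 by edgeR's quasi-likelihood test (498 genes at an unadjusted p under 0.05) and with a mean CPM above 1 (813), 10 by the edgeR exact test, 11 by DESeq2, 5 with only the groups compared and 15 with 2 surrogate variables. Leaving out 1 library gave 0 (without WT EV replicate 2) to 5 (without WT EV replicate 1). Mmp7 was not called by the quasi-likelihood test (3.64), without a filter (3.53), with the replicate block (2.55) or without WT EV replicate 2 (3.74). With a mean CPM above 1 it was not among the genes tested. Its log2 fold change ran from 3.17 to 3.74 over the fits that left out 1 library. Under NAMPT, the count of 1120 became 45 (quasi-likelihood), 177 (exact), 294 (DESeq2), 38 (no quality weights), 120 (no filter), 12 (only the groups compared) and 22 (surrogate variables), and 0 to 2287 without single libraries. The interaction count of 1 became 0 by quasi-likelihood (1545 at an unadjusted p under 0.05), 0 without weights (1633) and 0 with surrogate variables (1847). It became 19 by DESeq2 (without Adamtsl2, which had no adjusted p), 3 by library size only, 4 without a filter, and 1 to 676 without single libraries. Leaving out LKO NAMPT replicates 1, 3 and 4, chosen after seeing the data for their Gh counts, gave 1664 under NAMPT and 376 for the interaction. The cause of these shifts was not tested.

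With the replicate block, counts were 2 (Fmnl2 and Npnt), 412 under NAMPT and 66 for the interaction, and Mmp7 stood at 2.55 (adjusted p 0.466 in limma) and was not called. The collagen median turned from 0.28 to -0.18, the metalloproteinase median from 0.20 to -0.017 and the lipogenesis median from 0.12 to -0.21. The shared numbers 1, 2 and 4 gave correlations of deviations of 0.42, 0.19 and -0.38. Of the 3 LKO EV libraries with a shared number, 1 correlated best with its own number. So few shared numbers cannot decide whether the numbers pair the mice. The block turned Fgf21 to -0.21, Acaca to -0.20, Elovl6 to -0.30, Scd1 to -0.22, Pbld2 to 0.081 and Dnajc12 to 0.11. Surrogate variables turned Pbld2 to 0.026 and Dnajc12 to 0.053, and library size only turned Dnajc12 to 0.0035 and Reep3 to 0.0058. Leaving out 1 library moved Fasn between -0.36 and 0.060, Elovl6 between -0.066 and 0.30, Scd1 between -0.038 and 0.23, Pbld2 between -0.11 and 0.024, Dnajc12 between -0.16 and 0.075, 1110002J07Rik between -0.032 and 0.37 and Reep3 between -0.062 and 0.027. Of 1787 values of named genes under alternatives, 1723 kept their sign and side of the threshold and 25, in 9 genes, turned sign, and 10 of 736 list medians moved by more than the spread. Low counts limit Mmp7 and Gh.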
